A study of Mus musculus with 6 samples.

Results

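The Iroquois genes Irx1 to Irx6 and the Sall genes Sall1 to Sall4 were followed through 3 mouse embryonic fibroblast (MEF) lines that lack circadian repressors. These 10 genes were taken by symbol from the 27179 genes counted, because earlier results of these counts had shown members at 0 in one line and abundant in another. The members were thus chosen by their normalized counts in these same libraries, so their levels and differences are given as a description, and no call or SE quoted for a member is meant as a test of it. Of the 10 genes, 6 reached the mean of 100 normalized counts required for testing, a filter that 11934 genes passed, and Sall3, Sall4, Irx4 and Irx6 did not. Irx3 and Sall1 passed through the Per/Nr1d_KO line alone.

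All cells were immortalized MEF of the C57BL/6 strain, and all lacked per1 and per2 (per1-/-, per2-/-). The Cry/Per_KO genotype adds cry1-/- and cry2-/-, the Per/Nr1d_KO genotype adds nr1d1-/- and nr1d2-/-, and the Cry/Per/Nr1d_KO genotype combines all 6 knockouts. Cry/Per/Nr1d_KO is 1 clone in which Nr1d1 and Nr1d2 of the Cry/Per_KO line were mutated with CRISPR, and Per/Nr1d_KO is an earlier line for which the same guides had been used. With 1 line per genotype, the genotype and the line cannot be told apart. Each line gave 2 libraries from independent RNA preparations, so every SD and every p-value measures the spread between preparations of the same line. The comparison of Cry/Per_KO with Cry/Per/Nr1d_KO was made for the effect of NR1D, and that of Per/Nr1d_KO with Cry/Per/Nr1d_KO for the effect of CRY.

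The genotype labels and the names of the deposited counts disagree for 2 of the 3 lines: counts labelled Cry/Per_KO carry the name of Cry/Per/Nr1d_KO, and the reverse. The 2 libraries with each label are called here the Cry/Per/Nr1d_KO-labelled pair and the Cry/Per_KO-labelled pair, and values given for one of these pairs would belong to the other line if the names were right. Transcripts of all 6 targeted genes were counted in every library, so no knockout can be read from the absence of its transcript. Their levels did differ between the 2 pairs. Nr1d1 gave 3158 and 3146 normalized counts in the Cry/Per/Nr1d_KO-labelled pair, 9337 and 9249 in the Cry/Per_KO-labelled pair and 5359 and 4838 in Per/Nr1d_KO. Cry1, Per1 and Nr1d2 were likewise higher with the Cry/Per_KO label than with the Cry/Per/Nr1d_KO label, by 1.66, 0.90 and 0.65 (log2, edgeR adjusted p = 9.62e-13, 1.52e-09 and 4.68e-08). Arntl, which encodes BMAL1 and is known to be repressed by NR1D proteins, had 1191.5 and 1171 normalized counts in the Cry/Per/Nr1d_KO-labelled pair, 2176 and 2208 in the Cry/Per_KO-labelled pair and 2493 and 2455 in Per/Nr1d_KO. It was thus lowest in the pair labelled as lacking NR1D, by 0.89 (log2, edgeR adjusted p = 2.42e-09) against the pair labelled as having it, and Cry1, also known as a target of NR1D repression, was lower there too. These levels go against the labels of the 2 pairs and would have the opposite direction under the names. Groups were nevertheless kept as labelled, since they were not assigned from measured values. The statement that a member is high or low in Per/Nr1d_KO does not depend on the labels of the other 2 lines, but its reference does.

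Iroquois proteins are homeodomain transcription factors of the TALE class, encoded in 2 clusters of 3 genes each, and they pattern the limb, heart, neural tube and other embryonic fields. Sall proteins are zinc finger factors related to Drosophila spalt that bring the NuRD histone deacetylase complex to DNA. Sall1 is needed for kidney development, Sall4 for pluripotency of early embryonic cells, and both act in the limb. Embryonic fibroblasts keep part of the positional expression of the tissue they were taken from.

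The genes lie on 5 chromosomes of GRCm38. Irx1 (chr13:71958232-71963723, minus strand), Irx2 (chr13:72624430-72634196, plus strand) and Irx4 (chr13:73259589-73269622, plus strand) form one cluster. Irx3 (chr8:91798511-91801654, minus strand), Irx5 (chr8:92357796-92361456, plus strand) and Irx6 (chr8:92674289-92680956, plus strand) form the other. Sall1 (chr8:89027242-89044162, minus strand) is on the same chromosome as the Irx3 cluster. Sall2 (chr14:52311177-52328670) and Sall4 (chr2:168748332-168767201) are also on the minus strand. In the GENCODE exon models, 4.49% of the Irx3 exon bases lie opposite the antisense gene Irx3os, and 4.16% of the read-length stretches of Irx3 occur in another gene as well. Sall4 lies opposite Gm14261 over 9.50% of its exon bases. Neither the strand setting of the counting nor the treatment of reads with several matches is given in the sources used here, so a few counts of these genes may belong to the other gene.

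The promoters of 5 members could be matched in the RefSeq promoter sequences (GRCm38.p6). The 250 bases before the start are printed 5′ to 3′ on the gene's strand, with each CpG dinucleotide in capitals. Irx2 and Irx4 are shown as neighbours of 1 cluster of which one was abundant and the other silent, Irx3 and Sall1 as the members high in Per/Nr1d_KO, and Sall2 as the Sall gene found in every line.
Irx2, chr13:72628570-72628819: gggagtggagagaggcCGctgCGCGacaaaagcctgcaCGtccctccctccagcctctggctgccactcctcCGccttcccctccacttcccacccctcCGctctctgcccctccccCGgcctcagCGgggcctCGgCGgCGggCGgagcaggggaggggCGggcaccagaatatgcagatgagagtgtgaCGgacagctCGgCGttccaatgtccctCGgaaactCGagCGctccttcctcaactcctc
Irx4, chr13:73260247-73260496: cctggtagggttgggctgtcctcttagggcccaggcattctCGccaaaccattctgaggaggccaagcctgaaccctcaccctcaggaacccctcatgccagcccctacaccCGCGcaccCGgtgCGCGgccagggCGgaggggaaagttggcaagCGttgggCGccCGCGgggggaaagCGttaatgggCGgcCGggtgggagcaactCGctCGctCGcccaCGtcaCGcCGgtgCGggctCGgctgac
Irx3, chr8:91801655-91801904: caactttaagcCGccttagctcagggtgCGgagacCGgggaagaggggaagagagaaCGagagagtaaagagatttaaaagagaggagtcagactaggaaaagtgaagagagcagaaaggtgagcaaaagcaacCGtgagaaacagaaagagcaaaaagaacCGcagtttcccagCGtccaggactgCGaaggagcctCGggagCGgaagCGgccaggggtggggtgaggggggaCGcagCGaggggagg
Sall1, chr8:89044163-89044412: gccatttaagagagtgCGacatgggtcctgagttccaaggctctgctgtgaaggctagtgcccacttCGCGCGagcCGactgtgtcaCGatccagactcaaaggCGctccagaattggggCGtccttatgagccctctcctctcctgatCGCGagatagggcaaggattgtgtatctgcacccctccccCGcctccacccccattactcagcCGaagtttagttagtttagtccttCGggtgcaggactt
Sall2, chr14:52328671-52328920: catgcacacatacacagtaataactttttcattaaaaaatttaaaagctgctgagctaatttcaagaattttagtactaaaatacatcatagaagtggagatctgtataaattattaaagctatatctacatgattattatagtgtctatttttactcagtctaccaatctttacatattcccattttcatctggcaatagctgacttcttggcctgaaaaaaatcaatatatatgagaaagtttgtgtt

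These windows hold 19 CpG in Irx2, 22 in Irx4, 13 in Irx3, 13 in Sall1 and 0 in Sall2, against a median of 6 over 27025 promoters of the same length. Fewer CpG were found in 80.5% of all promoters than in Irx2, in 85.4% than in Irx4 and in 68.2% than in Irx3 or Sall1. The other starts of Sall1 in the same table have 25 and 30 CpG in their windows, and the second start of Sall2 has 6. The silent Irx4 had more CpG than the expressed Irx2, and both windows hold the GC box GGGCGG in 2 places, a motif found in 33.0% of promoters. Both strands were searched. CCAAT, found in 34.5% of promoters, occurs once each in Irx2, Sall1 and Sall2, and TATAAA, found in 13% of them, occurs once, in Sall2. Neither the E-box CACGTG, bound by CLOCK and BMAL1, nor AGGTCA, the half-site bound by NR1D proteins, is in any of the 5 windows. They occur in 6.04% and 13.8% of all promoters, and their absence says only that these letters are not in these windows.

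Normalized counts are counts scaled to a common library size. A gene is called off in a line where both libraries hold at most 3 counts, which corresponds to 2.37 to 3.80 normalized counts, and on where both hold at least 100 normalized counts. By this reading Irx1, Irx2, Sall1 and Sall3 were on in one line and off in another, Irx5 and Sall2 were on in all 3 lines, and Irx4 and Irx6 were off in all 3. Irx3 and Sall4 fell between these classes. Of the 12396 genes on in at least 1 line, 261, or 2.11%, were off in another. The 4 of 10 members with such a pattern were chosen with it known, so nothing is read from the difference. The number of members off was 3 in the Cry/Per/Nr1d_KO-labelled pair, 5 in the Cry/Per_KO-labelled pair and 6 in Per/Nr1d_KO, against 39.9%, 41.6% and 41.4% of all genes counted. These are bulk libraries, in which fewer cells with a transcript and less of it per cell cannot be told apart.

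**Figure D1:**
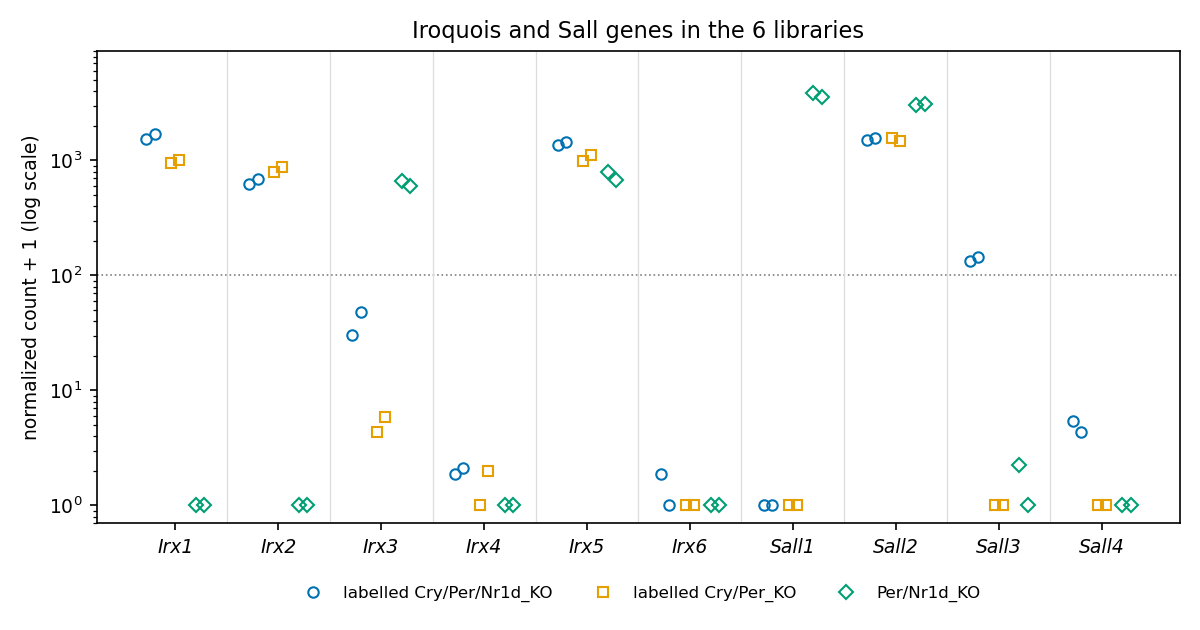
Normalized count plus 1 (log axis) of each Iroquois and Sall gene in each of the 6 libraries, 1 point per library, with the dotted line at 100. Irx1 and Irx2 lie at 0 in both Per/Nr1d_KO libraries, Sall1 lies at 0 in the other 4 libraries, and Irx5 and Sall2 are above the line everywhere.

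In the Irx1 cluster, Irx1 and Irx2 were expressed in the 2 related lines and absent from Per/Nr1d_KO, and Irx4 was silent. Irx1, a factor of limb, lung and heart development, had 1551 and 1686 normalized counts in the Cry/Per/Nr1d_KO-labelled pair, 954 and 1017 in the Cry/Per_KO-labelled pair, and 0 counts in both Per/Nr1d_KO libraries. The groups did not overlap. The mean was 1618 ± 95.3 (SD, n = 2) with the Cry/Per/Nr1d_KO label and 986 ± 44.9 (SD, n = 2) with the Cry/Per_KO label, a ratio of 1.64, and the latter was at least 319-fold above the floor of 3 counts per library in Per/Nr1d_KO.

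Irx2, its neighbour 665 kb away, was 624 and 687 in the Cry/Per/Nr1d_KO-labelled pair, 786 and 882 in the Cry/Per_KO-labelled pair, and again 0 counts in both Per/Nr1d_KO libraries. It shared the on and off pattern of Irx1, but the order of the 2 related lines was the opposite. Irx2 was 1.27-fold higher with the Cry/Per_KO label (834 ± 67.9 against 656 ± 44.7, SD, n = 2 each), and at least 213-fold and 270.3-fold above the Per/Nr1d_KO floor in the Cry/Per/Nr1d_KO-labelled and Cry/Per_KO-labelled pairs. This rise of 0.35 (log2) equals the median of the 449 tested genes of chromosome 13 in the same comparison, Irx2 being itself the median gene. With the same median subtracted, the log2 difference of Irx1 between these lines was -1.06, past the limit of a 75% change that it otherwise did not reach.

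Irx4, a marker of the heart ventricle, had 1 count in each library labelled Cry/Per/Nr1d_KO, 0 and 1 in the Cry/Per_KO-labelled pair, and 0 in both Per/Nr1d_KO libraries. It was under the floor in all 6 libraries although its cluster neighbours were abundant in 4 of them. Gm20554, a noncoding RNA gene of the opposite strand (chr13:72623466-72628564), starts 256 bases from the Irx2 start whose promoter is printed here (position 72628820) and lies partly within the longer Irx2 span given above. It had 83.5 and 88.8 normalized counts in the Cry/Per/Nr1d_KO-labelled pair, 185 and 199 in the Cry/Per_KO-labelled pair and 0 in Per/Nr1d_KO. It was below the filter and was not tested, and it followed Irx2 both in its absence from Per/Nr1d_KO and in the order of the other 2 lines, at a ratio of 2.23 between them.

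In the Irx3 cluster, Irx3 ran opposite to Irx1 and Irx2, Irx5 was expressed everywhere and Irx6 nowhere. Irx3, a factor of neural tube patterning and energy balance, had 29.3 and 46.6 normalized counts in the Cry/Per/Nr1d_KO-labelled pair, 3.34 and 4.91 in the Cry/Per_KO-labelled pair, which are 3 and 5 counts, and 658 and 597 in Per/Nr1d_KO. The 3 lines did not overlap, with means of 38.0 ± 12.3, 4.12 ± 1.11 and 627 ± 43.4 (SD, n = 2 each). Per/Nr1d_KO was 16.5-fold above the Cry/Per/Nr1d_KO-labelled pair (95% counting interval 13.3 to 21.4) and 152-fold above the Cry/Per_KO-labelled pair (75.2 to 345). The 2 related lines differed 9.21-fold (4.28 to 21.3), which rests on 8 counts in the lower pair. Its preparations with the Cry/Per/Nr1d_KO label differed by the largest ratio among the 3 pairs, and without one or the other of them the log2 difference to Per/Nr1d_KO was 3.74 or 4.41.

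Irx5, which overlaps with Irx3 in function in the heart and limb, had 1353 and 1449 normalized counts in the Cry/Per/Nr1d_KO-labelled pair, 998 and 1107 in the Cry/Per_KO-labelled pair, and 787 and 677 in Per/Nr1d_KO. The 3 lines stood in this order without overlap. The log2 difference of Per/Nr1d_KO was -0.95 (SE 0.085) against the Cry/Per/Nr1d_KO-labelled pair and -0.54 (SE 0.086) against the Cry/Per_KO-labelled pair, so Irx5 was 1.91-fold and 1.44-fold lower in the line in which Irx3 was high. Irx6 gave 1 count in 1 library labelled Cry/Per/Nr1d_KO and 0 counts in the other 5 libraries. No fold is given for Irx4 or Irx6, which were under the floor throughout.

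Among the Sall genes, Sall1 was abundant in Per/Nr1d_KO alone and Sall3 in the Cry/Per/Nr1d_KO-labelled pair alone. Sall1 had 3866 and 3542 normalized counts in Per/Nr1d_KO, from 3050 and 4489 counts, and 0 counts in the other 4 libraries. Sall3 (chr18:80966989-80987021, minus strand), a factor of the nervous system and limb, had 132 and 143 normalized counts in the Cry/Per/Nr1d_KO-labelled pair, from 149 and 129 counts, 0 counts in the whole Cry/Per_KO-labelled pair, and 1 and 0 counts in Per/Nr1d_KO. These 2 genes were never found together above the floor. Sall3 was at least 43.8-fold higher with the Cry/Per/Nr1d_KO label than with the Cry/Per_KO label, although one line was derived from the other, and which of the 2 lines expressed Sall3 depends on the labels, which the levels of Arntl and Cry1 go against. Its ratio to Per/Nr1d_KO was 217 (95% counting interval 50.2 to 11180), with 1 count in the denominator. Among the members on in any line Sall3 was the closest to the limit of 100 normalized counts.

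Sall4 was nearly absent, with 5 and 3 counts in the Cry/Per/Nr1d_KO-labelled pair and 0 counts in the other 4, at least 1.24-fold and 1.26-fold above the floor of the other lines. Sall2, associated with growth arrest and eye development, was the Sall gene present in every line. Its normalized counts were 1501 and 1567 in the Cry/Per/Nr1d_KO-labelled pair, 1553 and 1484 in the Cry/Per_KO-labelled pair, and 3006 and 3084 in Per/Nr1d_KO. The 2 related lines overlapped, with a log2 difference of -0.01 (SE 0.060), and both were below Per/Nr1d_KO, by 0.99 (SE 0.058) and 1.01 (SE 0.058) on the log2 scale. The tested genes of chromosome 14 were themselves shifted in Per/Nr1d_KO, by a median of 0.52 against the Cry/Per/Nr1d_KO-labelled pair and 0.62 against the Cry/Per_KO-labelled pair, over 378 genes. Relative to its chromosome Sall2 was higher by 0.47 and 0.38, below the limit of a 75% change used for calls, and the part of this shift in the level of Sall2 was not tested.

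By the call rule used for all genes, an edgeR adjusted p under 0.05 and a change of more than 75%, 1 of the 6 tested members, Irx3, was called in the Cry/Per_KO-labelled pair relative to the Cry/Per/Nr1d_KO-labelled pair, where 16.8% of all tested genes were called. It was lower, as 8.95% of all genes were, and 0 members were higher, beside 7.86% of all genes. In Per/Nr1d_KO, 6 members were called relative to the Cry/Per/Nr1d_KO-labelled pair, beside 20.7% of all tested genes, with 3 higher (11.3% of all genes) and 3 lower (9.35%). Relative to the Cry/Per_KO-labelled pair 5 were called, beside 29.0% of all genes, with 3 higher (15.2%) and 2 lower (13.8%). Both of these comparisons share the Per/Nr1d_KO libraries. The choice of members used these contrasts, so the counts are a description.

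Levels of different genes were compared per kb of exon. Per kb, Irx1 led the Iroquois genes in the Cry/Per/Nr1d_KO-labelled pair with 48.3% of the family's normalized counts per kb, followed by Irx5 with 35.0%, Irx2 with 15.6% and Irx3 with 1.07%. With the Cry/Per_KO label the same order held, with 38.9%, 34.7%, 26.2% and 0.153%. In Per/Nr1d_KO the family consisted of Irx5 (50.7% ± 0.93, SD, n = 2) and Irx3 (49.3% ± 0.93), 2 genes of the same cluster at a similar level. The family total per kb was 1279.9 ± 76.1, 968 ± 63.0 and 461 ± 40.6 (SD, n = 2) with the Cry/Per/Nr1d_KO label, with the Cry/Per_KO label and in Per/Nr1d_KO, and was lowest in the line without Irx1 and Irx2.

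The Sall family was highest in Per/Nr1d_KO. Its total per kb was 301.5 ± 9.44, 279 ± 8.97 and 1264 ± 33.6 (SD, n = 2) in the same order of lines. Sall2 made up 93.7% with the Cry/Per/Nr1d_KO label, where Sall3 made up 6.11%, and all of the family with the Cry/Per_KO label. In Per/Nr1d_KO, Sall1 made up 55.6% ± 1.96 and Sall2 44.4% ± 1.97 (SD, n = 2).

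**Figure D2:**
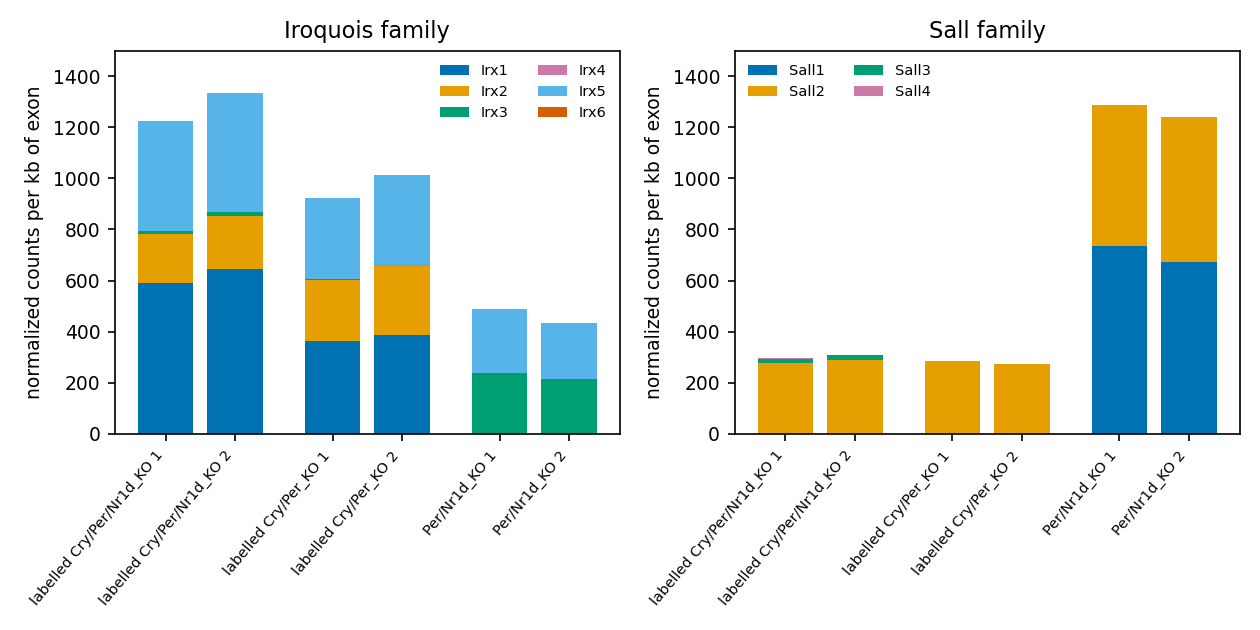
Normalized counts per kb of exon (linear axis from 0) stacked over the genes of each family, 1 bar per library. The Iroquois bars change from Irx1, Irx2 and Irx5 in the 4 libraries of the 2 related lines to Irx3 and Irx5 in Per/Nr1d_KO, and the Sall bars gain Sall1 there.

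The genes nearest in pattern to each member were found as those with the smallest root mean square difference in log2(normalized count + 1) over the 6 libraries. For Irx1 these were Pcdh9 (0.154), Pgm5 (0.165) and Adamts9 (0.441), and for Irx2 they were Klf12 (0.226), 3110039M20Rik (0.262) and Adamts9 (0.350). All 5 of these genes were at 0 counts in both Per/Nr1d_KO libraries. Sall1 had no near match, the closest being Vnn1 at 0.754, with 0 counts in 4 libraries and 1518 and 1474 normalized counts in Per/Nr1d_KO. Sall3 was followed by Dpysl4 (0.247), Kcna6 (0.365) and the nuclear receptor gene Nr5a2 (0.452). Irx3 was nearest to Kcnn4 (0.516), Esrp2 (0.608) and 1700007K13Rik (0.611), Irx5 to the homeobox gene Lhx6 (0.126), Pusl1 (0.146) and Pde5a (0.157), and Sall2 to Gpam (0.048), Ddx19b (0.111) and 2810025M15Rik (0.119). Of the genes on in at least 1 line, 42 (0.339%) had the on and off pattern of Irx1 and Irx2, 33 (0.266%) that of Sall3 and 22 (0.177%) that of Sall1.

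The genes around the members were examined next. Within 1 Mb of a member, measured between the lowest coordinates of the gene spans, 179 other genes were counted, of which 88 had no count in any library and 54 were tested. Between the 2 related lines 8 of the 54 were called, 14.8% against 16.8% of all genes. The 4 called lower with the Cry/Per_KO label were Nkd2, Nkd1, Ces1g and Atp9a. These reached the filter only through the Cry/Per/Nr1d_KO-labelled pair, in which they were high. Their calls against that pair are counted here but do not support a difference. In Per/Nr1d_KO 11 (20.4%) were called against the Cry/Per/Nr1d_KO-labelled pair and 14 (25.9%) against the Cry/Per_KO-labelled pair, beside 20.7% and 29.0% of all genes. Between the related lines the count of neighbours rested in part on single libraries, with 5 and 4 called without the first or the second preparation of the Cry/Per/Nr1d_KO-labelled pair and 8 to 10 without any other library.

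Crnde, a noncoding RNA gene whose span ends 1.68 kb before that of Irx5 begins, had 710.3 and 704 normalized counts in the Cry/Per/Nr1d_KO-labelled pair, 787 and 779.6 in the Cry/Per_KO-labelled pair, and 341 and 376 in Per/Nr1d_KO. It was lower in Per/Nr1d_KO by 0.97 (log2, SE 0.086, edgeR adjusted p = 6.03e-08) and by 1.12 (SE 0.086, edgeR adjusted p = 7.27e-09), beside the 0.95 and 0.54 of Irx5. Farther along, the matrix metalloproteinase gene Mmp2 was higher in Per/Nr1d_KO by 1.49 and 1.44 (log2), at 52013 and 51026 normalized counts. Of the 5 tested genes on the other side of Irx3, Aktip was called lower in Per/Nr1d_KO against the Cry/Per_KO-labelled pair (log2 difference -0.90, SE 0.050, edgeR adjusted p = 1.27e-10), and Fto, Rpgrip1l, Rbl2 and Chd9 were called in none of the 3 comparisons. Fto, whose introns hold regulatory sequence of Irx3, ranged from 7948 to 9169 normalized counts over the 6 libraries.

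Around Sall1, the untested gene Gm3134 had 33.0 and 25.3 normalized counts in Per/Nr1d_KO and 0 elsewhere. Its span (chr8:89041243-89071019) overlaps that of Sall1, and whether some of these counts belong to Sall1 was not tested. Each of the 8 tested neighbours of Sall1 was present in the Cry/Per/Nr1d_KO-labelled pair, where Sall1 was absent. Of these, Nkd1, a Wnt pathway inhibitor, had 235 and 237 normalized counts in the Cry/Per/Nr1d_KO-labelled pair, 0 and 2.95 in the Cry/Per_KO-labelled pair and 95.1 and 86.0 in Per/Nr1d_KO. Around Sall2 the shift was shared: 10 of the 11 tested neighbours had a positive log2 difference in Per/Nr1d_KO against either related line, with medians of 0.53 and 0.39. The medians over the 378 tested genes of chromosome 14 were 0.52 and 0.62, so the shift was not particular to these neighbours. Mettl17, Ndrg2 and Rab2b, 3 of the 11, were called higher against the Cry/Per/Nr1d_KO-labelled pair, by 0.89, 1.33 and 1.07 (log2), beside 20.7% of all genes. Against the Cry/Per_KO-labelled pair 1 of the 11, Mettl17, was called, beside 29.0% of all genes. Around Sall3, 1 of 8 tested neighbours was called, Atp9b, by -0.84 (log2) in Per/Nr1d_KO against the Cry/Per_KO-labelled pair. The median in that comparison was -0.65 over the 8 neighbours and -0.45 over the 316 tested genes of their chromosome.

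**Figure D3:**
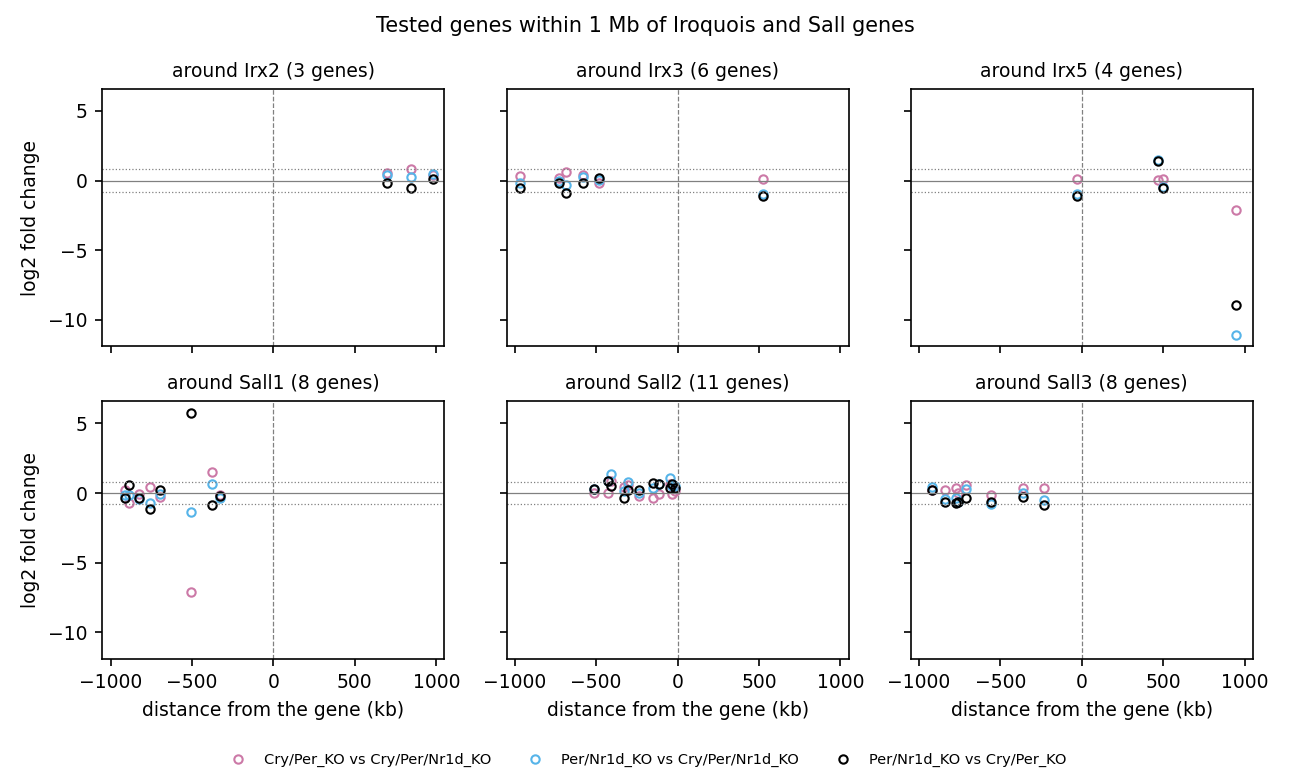
Log2 fold change (edgeR) of the tested genes within 1 Mb of 6 members against the distance in kb between the lowest coordinates of their spans and the member's, in 3 comparisons named by the genotype labels, with dotted lines at a 75% change. Most neighbours lie between the lines, the points farthest from 0 are Ces1g and Nkd1, which have almost no counts in one line, and the Sall2 neighbours lie mostly above 0 in Per/Nr1d_KO.

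Lists of genes that work with the members were read from the same fit. The lists were chosen with earlier results of these data known. Their counts, medians and p-values are therefore a description, and nothing is read from their difference from all genes. Limb bud partners, factors that act with Iroquois, Sall1, Sall3 or Sall4 in the limb, were tested in 10 of 14 cases. In the Cry/Per_KO-labelled pair 5 of 10 were called relative to the Cry/Per/Nr1d_KO-labelled pair, all of them lower, beside 16.8% of all tested genes. In Per/Nr1d_KO 9 of 10 were called against the Cry/Per/Nr1d_KO-labelled pair (5 higher, 4 lower) and 7 of 10 against the Cry/Per_KO-labelled pair (5 higher, 2 lower), beside 20.7% and 29.0% of all genes. Tbx5, Hoxa13 and Gli1 reached the filter only through the line in which each was high, so their calls do not support a difference. These genes remain in the counts and medians of the list. The median log2 differences of the list were -1.13, 0.69 and 1.25, against medians of 0.00, 0.01 and 0.03 for all tested genes, and were the same with genes at 0 in a line set to their bounds.

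Several of these limb genes had on and off patterns of their own. Tbx5, the forelimb T-box factor, had 319.6 and 311 normalized counts in the Cry/Per/Nr1d_KO-labelled pair and 0 counts in the other 4 libraries, which is the pattern of Sall3, and was at least 100.3-fold and 102-fold higher there. Hand2, which sets up posterior limb identity, had 391 and 445 normalized counts with the Cry/Per/Nr1d_KO label, 0 counts with the Cry/Per_KO label, and 1185 and 978 in Per/Nr1d_KO. Hand2 was at least 133-fold lower with the Cry/Per_KO label (edgeR adjusted p = 2.78e-11). The pattern of Hand2 over the 3 lines resembled that of Irx3, which was also lowest with the Cry/Per_KO label and highest in Per/Nr1d_KO.

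The distal Hox genes were ordered in the same way. Hoxd13 had 1122 and 1198 normalized counts with the Cry/Per/Nr1d_KO label, 2.23 and 1.96 with the Cry/Per_KO label, and 13199.7 and 12547 in Per/Nr1d_KO. Hoxa13 had 42.6 and 48.9, then 0 counts in both, then 579 and 525. Tbx15, a T-box factor of the skeleton and skin, was 2895 and 2999, 1712 and 1723, and 20457 and 20134. Per/Nr1d_KO was the highest line for all 3 genes, by 3.47, 3.59 and 2.78 (log2) above the Cry/Per/Nr1d_KO-labelled pair (edgeR adjusted p = 4.87e-17 for Hoxd13 and 7.18e-17 for Tbx15). Fgf10, the limb bud growth factor, and Prrx1, a mesenchymal homeobox factor, went the other way, lower in Per/Nr1d_KO by 2.36 and 1.19 (log2) than in the Cry/Per/Nr1d_KO-labelled pair (edgeR adjusted p = 1.17e-11 and 7.27e-12). The Gli genes encode the transcription factors of Hedgehog signalling. Gli2 was higher in Per/Nr1d_KO by 2.19 in that comparison, and Gli3 was called in none. Gli1 was lower there by 1.53, but it reached the filter only through the Cry/Per/Nr1d_KO-labelled pair, so that call is no support for a difference.

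The other TALE homeodomain genes were all tested, and 2 of 12 (16.7%) were called between the related lines, beside 16.8% of all tested genes. With the Cry/Per_KO label Pbx4 and Pknox2, a pair of cofactors of Hox proteins, were higher by 1.49 and 1.31 (log2, edgeR adjusted p = 8.89e-07 and 1.87e-10) than with the Cry/Per/Nr1d_KO label. In Per/Nr1d_KO 5 of 12 (41.7%) were called against the Cry/Per/Nr1d_KO-labelled pair (3 higher, 2 lower) and 4 (33.3%) against the Cry/Per_KO-labelled pair (2 higher, 2 lower), beside 20.7% and 29.0% of all genes. Meis3 had the largest change of the list in both comparisons. It had 629 and 637 normalized counts with the Cry/Per/Nr1d_KO label, 960.5 and 1003.5 with the Cry/Per_KO label, and 78.6 and 72.6 in Per/Nr1d_KO (edgeR adjusted p = 9.75e-13 and 4.92e-14 for the fall in Per/Nr1d_KO). None of the 12 was off in a line.

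The NuRD subunits, through which Sall proteins repress, were all expressed in every line. None of the 15 was called between the Cry/Per_KO-labelled and Cry/Per/Nr1d_KO-labelled pairs by edgeR or by DESeq2, beside 16.8% of all tested genes by edgeR. Of the 15, 11 had an edgeR p under 0.05 both before and after adjustment, with changes under 75%. In Per/Nr1d_KO 2 of 15, or 13.3%, were called in both comparisons, both lower, beside 20.7% and 29.0% of all genes. These were Chd5, a chromatin remodeller, with normalized counts of 687 and 719.6 in the Cry/Per/Nr1d_KO-labelled pair, 746 and 745 in the Cry/Per_KO-labelled pair, and 100.1 and 124 in Per/Nr1d_KO, and the methyl-CpG binding protein gene Mbd2, lower by 1.09 and 1.30 (log2, edgeR adjusted p = 2.62e-10 and 2.04e-11). Of 10 pluripotency partners of Sall4 only Klf4 was tested, and it was lower in Per/Nr1d_KO by 1.43 and 1.30 (log2, edgeR adjusted p = 2.01e-11 and 4.96e-11). Sox2, which was below the filter, ran the other way. It had 55.05 and 47.8 normalized counts in the Cry/Per/Nr1d_KO-labelled pair, 39.0 and 30.4 in the Cry/Per_KO-labelled pair, and 161 and 113 in Per/Nr1d_KO. Nanog, also below the filter, was lowest in Per/Nr1d_KO, with means of 25.3, 39.5 and 13.8 in the same order of lines. Esrrb had means of 18.8, 3.01 and 2.45, and its libraries overlapped between the last 2 lines. Zfp42, Lin28a, Utf1 and Tdgf1 had no count in any library.

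**Figure D4:**
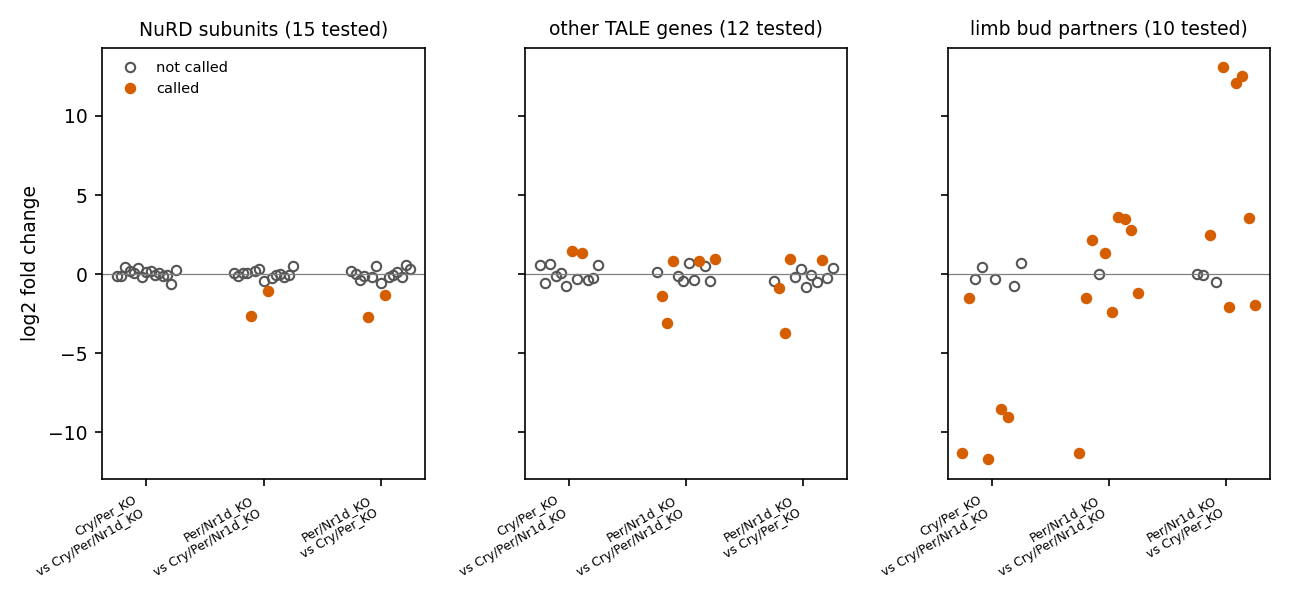
Log2 fold change (edgeR) of every tested gene of 3 lists in 3 comparisons named by the genotype labels, filled where called (adjusted p under 0.05 and a change over 75%). The 15 NuRD subunits stay near 0 apart from Chd5 and Mbd2, and the limb bud partners spread widely, with the farthest points being genes at or near 0 counts in a line.

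Markers of fibroblasts were high in all libraries, with 9 of 12 markers at or above 100 normalized counts with the Cry/Per/Nr1d_KO label, 8 with the Cry/Per_KO label and 8 in Per/Nr1d_KO. Thy1 and Lum were under the floor in the last 2 lines. Summed markers of epithelium (17.7 to 141 normalized counts), endothelium (83.5 to 225.5), skeletal muscle (25.5 to 191), blood (186 to 338) and pluripotent cells (11.0 to 43.2) were low in all libraries, and Myod1, Krt5, Cd3e and Pou5f1 were under the floor. Single markers of these lists were nonetheless present, with Cd68 at 109 to 276 normalized counts over all libraries, Cdh1 at 100.1 and 110 in Per/Nr1d_KO, and Pax7 at 107 and 94.4 in the Cry/Per/Nr1d_KO-labelled pair and 0 in the other 4 libraries. Summed neural markers were 5669.8 to 5984, 5360.2 to 5504 and 1002 to 1033 in the 3 lines. Tubb3 and Map2 were on in every line, Pax6 was at 160 and 173 normalized counts in the Cry/Per/Nr1d_KO-labelled pair and at 2.53 to 6.87 elsewhere, and Sox1 and Rbfox3 were under the floor. Summed markers shared with nephron progenitors, another tissue of Sall1 expression, were lower in Per/Nr1d_KO (1295 to 1401), where Sall1 was higher. The sums were 9351 to 9446.5 with the Cry/Per/Nr1d_KO label and 12475 to 13354 with the Cry/Per_KO label. In these 2 related lines Osr1 was the largest part, at 5644 and 5552 and at 9298 and 10056 normalized counts. Cited1 alone was higher in Per/Nr1d_KO than with the Cry/Per_KO label, at 25.3 and 33.9 against 11.1 and 7.86. Adipocyte markers summed to 2540.1 to 2591 in Per/Nr1d_KO and to 122 to 229.9 in the other 4 libraries, with Adipoq and Plin1 under the floor in Per/Nr1d_KO. Pparg had 887 and 851 normalized counts in Per/Nr1d_KO and at most 1.11 elsewhere, and Fabp4 and Cebpa were also highest there, at 1468 and 1579 and at 185 and 161. The part of these lists in the levels of the members was not tested.

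Library totals ran from 53764390 to 85927236 counts, and the preparations of a line differed by more than sampling noise (chi-square per degree of freedom 8.07 to 16.8). At this depth a count of 0 in a library allows up to 3 counts, and such limits and the intervals given cover counting error only.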

How the data were processed

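RNA of 3 MEF lines, 2 preparations each, was sequenced by the authors with a strand-marking kit and single-end reads, mapped to mm10 with STAR and counted with featureCounts. The deposited values are whole-number counts per Entrez gene, not normalized. The authors also deposited DESeq2 (1.22.2) tables with fold changes and p-values, which were not used. Symbols and coordinates came from RefSeq GRCm38.p6, and exon lengths and overlaps from GENCODE vM21.

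The analysis used edgeR 4.0.16 and DESeq2 1.42.0 under R 4.3.3. A single quasi-likelihood model over the 3 lines was fitted to all 6 libraries after TMM normalization, for genes averaging 100 normalized counts or more (common biological coefficient of variation 0.0393). Calls required a Benjamini-Hochberg adjusted p under 0.05 over all 11934 genes and a change of more than 75%. The SE of a log2 fold change is its size over the square root of F. In simulated data with 200 changed genes of 11931, edgeR recovered 197 for Per/Nr1d_KO against Cry/Per/Nr1d_KO, with 0 false calls.

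Folds of members are ratios of group means, with exact binomial (Clopper-Pearson) 95% intervals on the counts, and against 0 counts they are bounds at 3 counts per library. Members and lists were chosen with earlier results of these data known. Named were all members, up to 3 called genes per list and comparison with the largest change, neighbours that passed the same filter, and the 3 genes nearest in pattern to each member. Arntl, Sox2, Nanog, Esrrb, Osr1, Cited1, Cd68, Cdh1, Pax7, Gm20554 and Gm3134 were named after their values were seen. So were the limb bud partners outside that rule (Tbx15, Fgf10, Prrx1 and the Gli genes) and the list genes with no count. The fit has no term for the replicate number, since same-numbered libraries did not deviate together (correlations of -0.188, -0.0843 and -0.02 over the 3 comparisons). Alternatives were DESeq2, the study's limit on p, other size factors, no filter, the compared lines alone, a replicate block, each library left out, and exchanged labels. Chromosome medians and a block with crossed numbers were added after seeing the data.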

Additional observations from a re-analysis of the deposited data

How the results depend on the processing

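Over all alternatives run, 36 of 40 counts of called genes, 182 of 195 list counts and 11 of 12 counts of silent members stayed within 1.5 times the reported value. Of the members' log2 differences 209 moved by less than their SE times the square root of 2. Another 27 moved by more, and 1, the called difference of Irx3, changed sign. The uncalled differences of Irx1, Irx2 and Irx5 between the related lines also changed sign with the exchanged labels. That of Sall2 changed sign within the same limit under several settings. Those 27 arose with exchanged labels, with chromosome medians subtracted, with DESeq2 for Irx1, Irx2 and Sall1 against lines at 0 counts, and for Irx3 without a library labelled Cry/Per/Nr1d_KO. At an adjusted p under 1e-22 with DESeq2, the calls between the Cry/Per_KO-labelled and Cry/Per/Nr1d_KO-labelled pairs fell to 1150 from 2006, limb bud partners to 1 from 5, other TALE genes to 1 from 2 and neighbours to 5 from 8. In Per/Nr1d_KO, neighbours then numbered 6 against the Cry/Per/Nr1d_KO label and 8 against the Cry/Per_KO label. Without the filter on low counts, 20375 genes were tested, and 3808, 4576 and 5590 were called in the 3 comparisons, with 16, 25 and 23 neighbours and 1, 4 and 3 pluripotency partners. Leaving out 1 library gave 4 to 10 neighbours in the same comparison, with 4 or 5 without the second or first preparation of the Cry/Per/Nr1d_KO-labelled pair, and the cause was not tested. With 0 counts as the limit, 1 member was silent with the Cry/Per/Nr1d_KO label in place of 3. Exchanging the labels turned the Irx3 difference between these lines to 3.11 (log2), by construction. The replicate block gave 2002, 2468 and 3457 calls, and 2004 with the numbers of the Cry/Per_KO-labelled pair crossed. It changed no list count. Depth limits statements on Irx4, Irx6 and Sall4, which rest on at most 5 counts per library.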

Other observations

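Some genes at the far end of the Irx4 cluster differed between lines although Irx4 was silent. Of the 11 tested neighbours of Irx4, 3 were called in each of the 3 comparisons, beside 16.8%, 20.7% and 29.0% of all tested genes. Tert, the catalytic subunit of telomerase, 367 kb from Irx4, had 167 and 152 normalized counts in the Cry/Per/Nr1d_KO-labelled pair, 99.1 and 129 in the Cry/Per_KO-labelled pair, and 725 and 779.6 in Per/Nr1d_KO. It was 2.24 (log2, SE 0.11) higher in Per/Nr1d_KO than with the Cry/Per/Nr1d_KO label (edgeR adjusted p = 7.32e-11). Nkd2, an inhibitor of Wnt signalling, had 800.0 and 828 normalized counts with the Cry/Per/Nr1d_KO label, 106 and 97.2 with the Cry/Per_KO label, and 90.0 and 76.5 in Per/Nr1d_KO. Nkd2 was among the genes called in both comparisons with the Cry/Per/Nr1d_KO-labelled pair. It reached the filter only through that pair, in which it was high, so its calls do not support a difference. Its relative Nkd1, near Sall1, was also highest with the Cry/Per/Nr1d_KO label.

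Atp9a, a phospholipid flippase gene 114 kb from the nearly silent Sall4, had 372 normalized counts in each library labelled Cry/Per/Nr1d_KO, 8.90 and 6.87 in the Cry/Per_KO-labelled pair, and 25.4 and 24.5 in Per/Nr1d_KO. Against the Cry/Per/Nr1d_KO-labelled pair its log2 difference was -5.55 (SE 0.20) with the Cry/Per_KO label and -3.90 (SE 0.16) in Per/Nr1d_KO. It reached the filter only through the pair in which it was high and was picked for its size of change, so no test of it is given. Sall4 counts above 0 were found in the same pair of libraries in which Atp9a was high, at 5 and 3 counts.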
